A study of Rattus norvegicus with 6 samples.

Results

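Topoisomerases are the enzymes that cut, pass and reseal DNA strands to relieve twisting and tangling. The set described here was fixed by gene symbol: 8 listed genes, namely the topoisomerase genes Top1, Top1mt, Top2a, Top2b, Top3a and Top3b, and Tdp1 and Tdp2, whose products remove topoisomerases that stay trapped on DNA ends. Of the 8 symbols, 7 stood in the count table among 17487 symbols in all, and 6 of these passed the filter on low counts among 9205 that did. Top3a was not analysed here, and Tdp1 had too few counts for the test.

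The libraries came from the hearts of 6 adult male Wistar rats, an outbred laboratory strain, with 1 library per animal. The doxorubicin group was 3 rats given doxorubicin hydrochloride into a tail vein each week for 4 weeks at 3.75 mg/kg. The control group was 3 rats given the vehicle, 0.9% sodium chloride, in the same way. All 6 samples are bulk heart tissue, and the labels name neither the part of the heart nor the time after the last injection.

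Doxorubicin is an anthracycline that holds type II topoisomerases in the step in which DNA is cut and the enzyme is joined to the broken ends through a tyrosine. The type II enzymes are TOP2A, made mainly by dividing cells, and TOP2B, which resting cells such as adult cardiomyocytes also make. TDP2 cleaves the tyrosyl bond that TOP2 leaves at the 5′ end of DNA, and TDP1 cleaves the bond that TOP1 leaves at the 3′ end.

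The libraries held 2219685 to 3508282 counts. Levels are given in CPM, counts scaled to a common library total, adjusted by trimmed mean of M-values (TMM), and 3 counts corresponded to 0.852 to 1.33 CPM. Cardiomyocyte markers were abundant, with 9 of 10 listed symbols in the table, none of these at 0. Their summed level was 102950 to 111446 CPM in control and 81948 to 95852 CPM in doxorubicin libraries, so that the sums did not overlap. Singly, 3 of the 9 were apart and lower, against 7.06% of all tested symbols, and 1 had a log2 fold change above 0. Their median log2 fold change was -0.14, with a range of -1.62 to 0.19. Control library 1 stood apart from the rest, at -43.3 on the first principal component against -4.83 to 26.6 for the other libraries. Its 6 erythroid symbols summed to 7171 CPM against 1984 and 2499 CPM in controls 2 and 3, and 681, 2313 and 2641 CPM in doxorubicin libraries 1, 2 and 3, with Alas2 listed at 0 in all libraries. Doxorubicin library 1 stood apart in another way: its 4 atrial symbols, none at 0, summed to 3286 CPM against 187 to 918 CPM in the other libraries, and its erythroid sum was the lowest. Fold changes of the set are therefore given with and without control 1. They are also given without doxorubicin 1 for the genes with their lowest or highest value there, Top2a, Top1mt and Tdp2. Fold changes of the other genes and lists are given with all 6 libraries only.

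No gene of the set passed the test. With edgeR's quasi-likelihood test, 0 of 6 had a Benjamini-Hochberg adjusted p under 0.05, against 5 of 9205 tested symbols (0.0543%), and 0 of 6 had an unadjusted p under 0.05, against 8.1% of all tested symbols. DESeq2 and limma voom also called 0 of the set. The doxorubicin and control values overlapped for all 7 genes with counts, while they did not overlap for 13.4% of tested symbols. Without control 1 they did not overlap for 1 of the 7, Top2a, against 20.5% of tested symbols. The log2 fold change was above 0 for 4 of the 6 tested genes, against 52.1% of all tested symbols, and the median was 0.32 against 0.02 over all of them. Without control 1, 4 of the 6 were still above 0, but the median was 0.08 against 0.02 over all symbols. In bulk tissue, fewer cells of a type and less RNA per cell cannot be told apart.

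**Figure D1:**
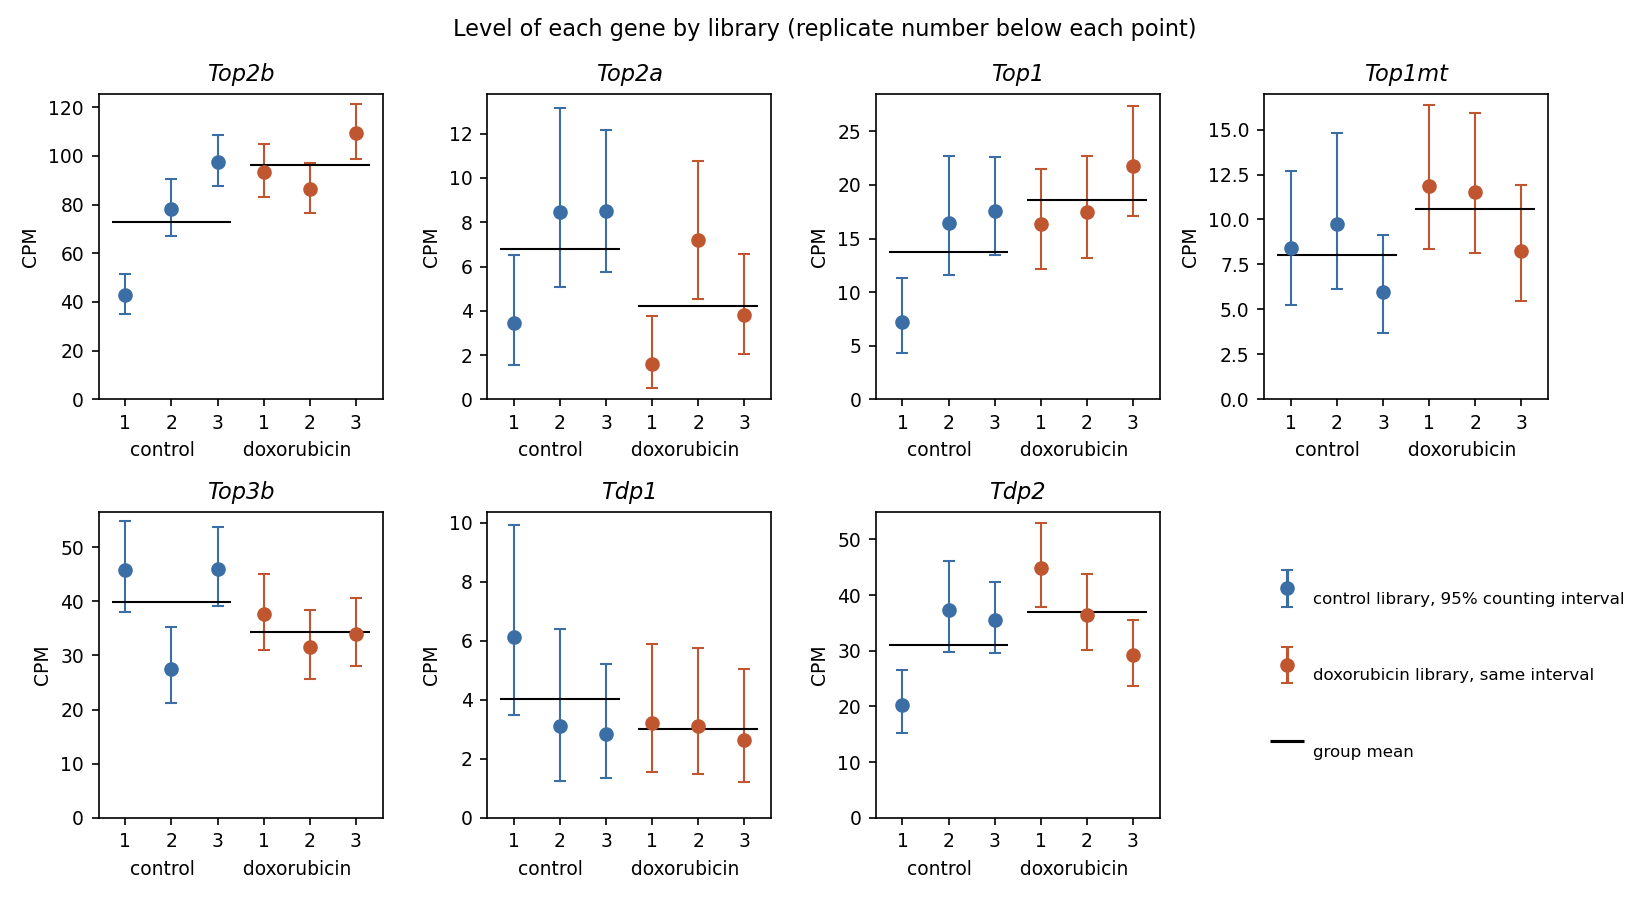
Level of each gene in CPM (vertical axes, from 0) in the 3 control and 3 doxorubicin libraries, with exact Poisson 95% intervals that cover counting error only and a line at each group mean. Control library 1 is the lowest of the 6 libraries for Top2b, Top1 and Tdp2 and the highest for Tdp1, and the groups overlap in each panel.

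Top2b encodes the type II enzyme of resting cells. Its level was 42.8, 78.2 and 97.7 CPM in control libraries 1, 2 and 3 and 93.4, 86.4 and 110 CPM in doxorubicin libraries 1, 2 and 3, from 112 to 372 counts per library. Control 1 was the low library, and the other 5 lay between 78.2 and 110 CPM with the groups interleaved. The group means were 72.9 ± 27.8 CPM in control and 96.5 ± 11.9 CPM in doxorubicin (SD, n = 3). Top2b had a log2 fold change of 0.40 (SE 0.25, adjusted p = 0.727 in edgeR), which is a 1.32-fold higher level with a 95% interval of 0.905-fold to 1.92-fold. Without control 1 it was 0.13 (SE 0.19).

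The Top2b libraries differed within the groups by more than counting error. The chi-square of the counts over its degrees of freedom was 17.6 within the groups, where counting error alone stays under 2.37 at the 95% level, and 5.17 without control 1 (95% level 2.6). The 95% interval for Top2b in control 1, 35.2 to 51.5 CPM, lay below that of every other library.

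Top2a encodes the type II enzyme of dividing cells and rested on 5 to 30 counts per library. Its level was 3.44, 8.44 and 8.52 CPM in control libraries 1, 2 and 3 and 1.60, 7.18 and 3.83 CPM in doxorubicin libraries 1, 2 and 3. Doxorubicin 2 stood close to controls 2 and 3, while control 1 fell between doxorubicin 1 and 3, so the groups overlapped. The means were 6.80 ± 2.91 CPM in control and 4.20 ± 2.80 CPM in doxorubicin (SD, n = 3). In log2 terms the fold change was -0.69 (SE 0.53, adjusted p = 0.772 in edgeR), with a 95% interval of -1.82 to 0.44. Without control 1 it was -1.0 (SE 0.53), and without doxorubicin 2 it was -1.29 (SE 0.59, unadjusted p = 0.0452 and adjusted p = 0.513 in edgeR). It was smaller in size without doxorubicin 1, at -0.31 (SE 0.52), without control 3, at -0.47, without control 2, at -0.52, and without doxorubicin 3, at -0.62. The chi-square ratio of Top2a was 4.61 within the groups and 3.94 without control 1, both beyond counting error.

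The balance of the type II transcripts was taken as the Top2b share of Top2a and Top2b counts, with Wilson 95% intervals that cover counting error only. Controls 1, 2 and 3 had a share of 92.6% (86.5 to 96.0), 90.3% (85.3 to 93.7) and 92.0% (88.8 to 94.3). For doxorubicin 1, 2 and 3 the values were 98.3% (96.1 to 99.3), 92.3% (88.8 to 94.8) and 96.6% (94.3 to 98.0). Doxorubicin 1 and 3 were above each control, and doxorubicin 2 fell inside the control range. The means were 91.6% ± 1.20 and 95.8% ± 3.08 (SD, n = 3), and no test was made because both genes belong to the set. Control 1, low for both genes, was not apart in this share. The control mean was below each doxorubicin library both with control 1, at 91.6%, and without it, at 91.1%. Controls 2 and 3 lay inside the interval of doxorubicin 2. The share depends on transcript length, so it is compared between libraries and is not a ratio of molecules.

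The upstream sequences of the type II genes are shown because the Top2a values are read beside cell cycle genes, which share known promoter elements with it. Each is the 250 bases before the RefSeq start of the gene, on the minus strand of build GRCr8, at chr10:84473094-84473343 for Top2a and chr15:11542465-11542714 for Top2b. Capitals mark CCAAT boxes, read as ATTGG where they lie on the other strand, and in Top2a also the cell cycle homology element TTTGAA, read as TTCAAA.
Top2a: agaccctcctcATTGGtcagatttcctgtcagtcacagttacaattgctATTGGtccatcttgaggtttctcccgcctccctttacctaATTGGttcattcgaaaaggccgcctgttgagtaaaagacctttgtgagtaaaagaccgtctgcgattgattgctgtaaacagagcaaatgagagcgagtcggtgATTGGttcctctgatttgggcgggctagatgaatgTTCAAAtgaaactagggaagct
Top2b: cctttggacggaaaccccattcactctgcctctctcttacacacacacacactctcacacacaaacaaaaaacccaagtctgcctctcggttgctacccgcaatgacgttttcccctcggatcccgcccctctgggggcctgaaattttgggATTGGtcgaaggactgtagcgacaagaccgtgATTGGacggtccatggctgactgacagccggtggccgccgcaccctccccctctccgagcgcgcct
The Top2a window held 4 CCAAT boxes and 1 TTTGAA, and the Top2b window held 2 CCAAT boxes and 0 TTTGAA, counted on both strands. Of 27457 rat windows of this length, 34.3% held CCAAT, 9.77% held at least 2 and 0.637% held at least 4. TTTGAA stood in 16.0% of windows, and CCAAT and TTTGAA stood together in 5.76%. The pair stood together in 6 of 16 matched windows of the tested cell cycle genes described next, among them Cdk1, Mki67 and Prc1. A match is a description of the letters, not a measured site.

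Genes of the S, G2 and M phases of the cell cycle, in which Top2a is made, gave 17 tested symbols of 28 listed, with Hmgb2 listed at 0. Ccna2, Ccnb1, Ccnb2, Bub1b, Birc5, Aurkb, Kif11, Cenpf, Plk1 and Rrm2 fell under the filter on low counts. None of the 17 passed the adjusted threshold in either direction. An unadjusted p under 0.05 in edgeR with a lower level in doxorubicin was seen for 3, against 378 of all 9205 tested symbols. A log2 fold change below 0 was seen for 14 of 17, while 52.1% of all tested symbols were above 0. The median was -0.56 against 0.02 over all tested symbols. The median count of these genes was 18.5 per library.

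The 3 with the smallest p were Cdk1, Mki67 and Prc1. Cdk1, the kinase that drives entry into mitosis, was at 6.49, 5.33 and 3.98 CPM in control and 1.28, 2.18 and 1.18 CPM in doxorubicin libraries 1, 2 and 3, and its fitted log2 difference was -1.73 (SE 0.50, adjusted p = 0.288 in edgeR). Mki67, which encodes the proliferation antigen Ki-67, was at 4.20, 8.44 and 10.2 CPM in control and 4.17, 3.12 and 1.77 CPM in doxorubicin, and its log2 fold change was -1.35 (SE 0.48, adjusted p = 0.439 in edgeR). Prc1, a spindle midzone protein gene, was at 7.26, 5.33 and 7.10 CPM against 2.25, 5.30 and 1.18 CPM, with -1.18 (SE 0.51, adjusted p = 0.575 in edgeR) on the log2 scale. All 3 had doxorubicin values below each control value, but Mki67 and Prc1 by the narrow margins of these figures. Cdk1 rested on 4 to 17 counts per library and reached the filter's minimum count of 10 only in control libraries. It therefore passed the filter through the group where it was higher. Mki67 had 13, 10 and 6 counts in doxorubicin libraries 1, 2 and 3, and Prc1 had 7, 17 and 4. Both reached the minimum in every control library but not in every doxorubicin library. They too passed the filter through the control group. Doxorubicin 2 was the highest doxorubicin library for Top2a, Cdk1 and Prc1, and doxorubicin 1 for Mki67.

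**Figure D2:**
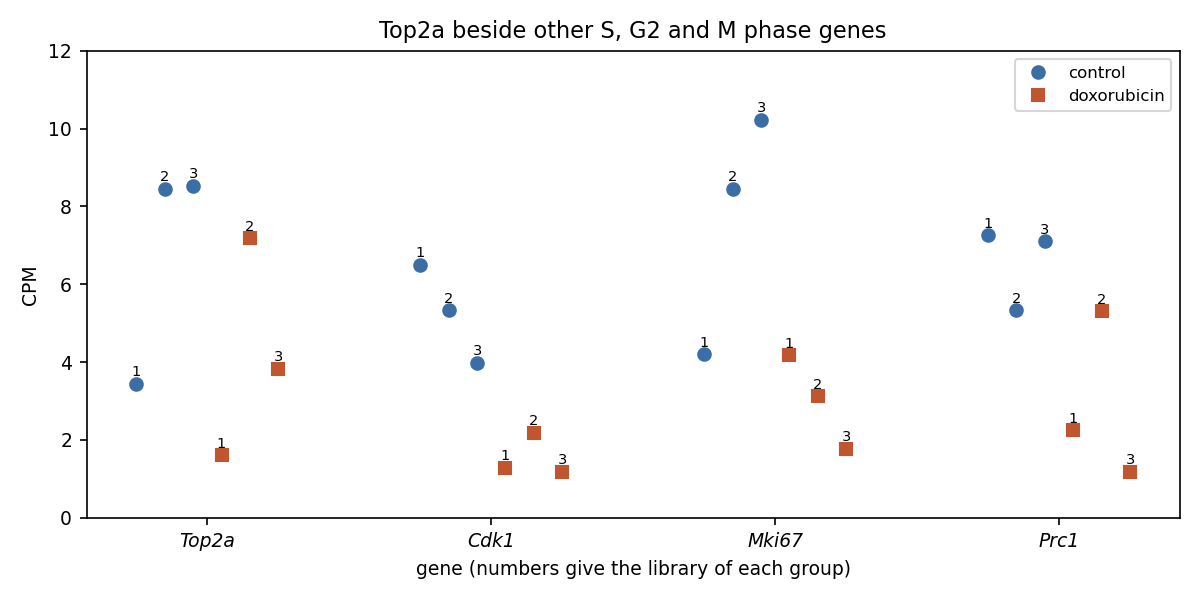
Level in CPM (vertical axis, from 0) of Top2a and of the 3 cell cycle genes with the smallest unadjusted p, in control (circles) and doxorubicin (squares) libraries numbered within each group. The groups of Top2a overlap, and its doxorubicin 2 value, 7.18 CPM, lies among the controls. The other 3 were chosen by p in these data and passed the filter on low counts through the control group. Groups were apart for 4 of the 17 tested cell cycle genes, all lower in doxorubicin, against 7.06% of all tested symbols apart and lower.

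Levels of markers of other cell types, in which dividing cells could lie, are given beside Top2a. Macrophage markers, 9 of 9 listed symbols in the table and none at 0, summed to 160 to 179 CPM in control and 192, 300 and 194 CPM in doxorubicin libraries 1, 2 and 3. Lymphocyte markers summed to 5.33 to 14.1 CPM in control and 4.99 to 7.70 CPM in doxorubicin, from 7 of 8 listed symbols, none at 0. Only 1 of these symbols passed the filter on low counts, so the lymphocyte sums rest on few reads. Endothelial markers (8 of 8, none at 0) summed to 1215 to 1399 CPM and 1028 to 1401 CPM, and fibroblast markers (7 of 7, none at 0) to 2562 to 2848 CPM and 2076 to 3545 CPM. Doxorubicin 2, the highest doxorubicin library for Top2a, was the highest library for the macrophage and fibroblast sums. The part of these cells in the Top2a values was not tested.

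Top1 encodes the nuclear type IB enzyme, which nicks a single strand. Its level was 7.26, 16.4 and 17.6 CPM in control libraries 1, 2 and 3 and 16.4, 17.5 and 21.8 CPM in doxorubicin libraries 1, 2 and 3, from 19 to 74 counts. Control 1 was again the low library, and control 2 and 3 lay with doxorubicin 1 and 2. The means were 13.8 ± 5.67 and 18.6 ± 2.88 CPM (SD, n = 3). Top1 had a log2 fold change of 0.42 (SE 0.33, adjusted p = 0.773 in edgeR, 95% interval -0.28 to 1.13), and without control 1 it was 0.13 (SE 0.28). The same chi-square ratio within the groups was 3.90, and 1.01 without control 1, which is inside counting error.

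Top1mt encodes the type IB enzyme that works in mitochondria, where it relaxes mitochondrial DNA. Its level was 8.40, 9.77 and 5.96 CPM in control libraries 1, 2 and 3 and 11.9, 11.5 and 8.25 CPM in doxorubicin libraries 1, 2 and 3, from 21 to 37 counts. Doxorubicin 1 and 2 were above each control, while doxorubicin 3 was below controls 1 and 2. With means of 8.05 ± 1.93 and 10.6 ± 2.00 CPM (SD, n = 3), Top1mt had a log2 fold change of 0.41 (SE 0.35, adjusted p = 0.798 in edgeR, 95% interval -0.34 to 1.15). Top1mt was not low in control 1, and the log2 fold change without that library was 0.46 (SE 0.39), and 0.32 (SE 0.40) without doxorubicin 1. Its spread within the groups, with that ratio at 1.33 and at 1.73 without control 1, was inside counting error.

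As a share of Top1 and Top1mt counts, Top1mt took 53.7% (Wilson 95% limits 38.7 and 67.9), 37.3% (26.1 and 50.0) and 25.3% (17.2 and 35.6) in controls 1, 2 and 3. For doxorubicin 1, 2 and 3 the values were 42.0% (32.3 and 52.5), 39.8% (30.4 and 49.9) and 27.5% (19.7 and 36.8). The means of 38.7% ± 14.2 and 36.4% ± 7.86 (SD, n = 3) differed by less than the spread between libraries. Control 1, the low library for Top1, had the highest share, and without it the control mean was 31.3%.

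Genes that keep and copy mitochondrial DNA gave 15 tested symbols of 17 listed, with Rnaseh1 listed at 0. None passed the adjusted threshold and none had an unadjusted p under 0.05. A log2 fold change above 0 was seen for 5 of 15, with a median of -0.09 and a range of -0.44 to 0.33. The 3 smallest p-values belonged to Mterf2 (-0.44, SE 0.31), Mterf4 (-0.34, SE 0.26), both of a family of mitochondrial DNA- and RNA-binding factors, and the mitochondrial transcription elongation factor gene Tefm (-0.23, SE 0.23).

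Top3b encodes a type IA enzyme that also acts on RNA. Its level was 45.8, 27.5 and 46.0 CPM in control libraries 1, 2 and 3 and 37.6, 31.5 and 33.9 CPM in doxorubicin libraries 1, 2 and 3, from 62 to 162 counts. Here control 2 was the low library, and the doxorubicin values lay between it and the other controls. The means were 39.8 ± 10.6 and 34.3 ± 3.04 CPM (SD, n = 3), and the fitted log2 difference was -0.22 (SE 0.23, adjusted p = 0.841 in edgeR), a 0.858-fold level with a 95% interval of 0.605-fold to 1.22-fold. Without control 1 the log2 value was -0.11 (SE 0.25), and without control 2 it was -0.41. The chi-square ratio was 3.82, and 4.59 without control 1, beyond counting error in both cases.

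Partners of the type IA enzymes gave 3 tested symbols of 7 listed, with Fmr1 listed at 0, and none passed the threshold or had an unadjusted p under 0.05. Tdrd3, the scaffold protein that binds TOP3B, was at 8.02, 16.4 and 20.2 CPM in control and 12.5, 21.2 and 16.8 CPM in doxorubicin libraries 1, 2 and 3. Tdrd3 overlapped between the groups and had its lowest value in control 1; its log2 fold change was 0.17 (SE 0.34). For the RNA-binding protein genes Fxr1 and Fxr2 the log2 fold change was 0.13 (SE 0.21) and -0.02 (SE 0.17).

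Tdp2 encodes the enzyme that frees DNA ends from TOP2. Its level was 20.2, 37.3 and 35.5 CPM in control libraries 1, 2 and 3 and 44.9, 36.5 and 29.2 CPM in doxorubicin libraries 1, 2 and 3, from 53 to 140 counts. Control 1 was the lowest and doxorubicin 1 the highest, and the other 4 libraries mixed. The means were 31.0 ± 9.38 and 36.9 ± 7.89 CPM (SD, n = 3). On the log2 scale the fold change was 0.25 (SE 0.26, adjusted p = 0.842 in edgeR), a 1.19-fold level with a 95% interval of 0.802-fold to 1.76-fold, and it was 0.02 (SE 0.24) without control 1 and 0.08 (SE 0.29) without doxorubicin 1. Its chi-square ratio was 6.47, and 3.71 without control 1, both beyond counting error.

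Tdp1, whose product clears TOP1 from DNA ends, gave few reads: controls 1, 2 and 3 had 16, 7 and 10 counts, and the doxorubicin libraries had 10, 10 and 9 in the same order. In CPM these were 6.11, 3.11 and 2.84 against 3.21, 3.12 and 2.65. Control 1 was the high library for Tdp1, the reverse of Tdp2, and the other 5 lay between 2.65 and 3.21 CPM. With no filter on low counts the fitted log2 difference was -0.41 (SE 0.55, adjusted p = 0.865 in edgeR). The fits that left out 1 library used the main filter, which Tdp1 then passed. Without control 1 the value was 0.02 (SE 0.56), and without any other library it was -0.63 to -0.32, so its direction rested on control 1. The spread within the groups was inside counting error, with that chi-square ratio at 1.20, and at 0.0773 without control 1.

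**Figure D3:**
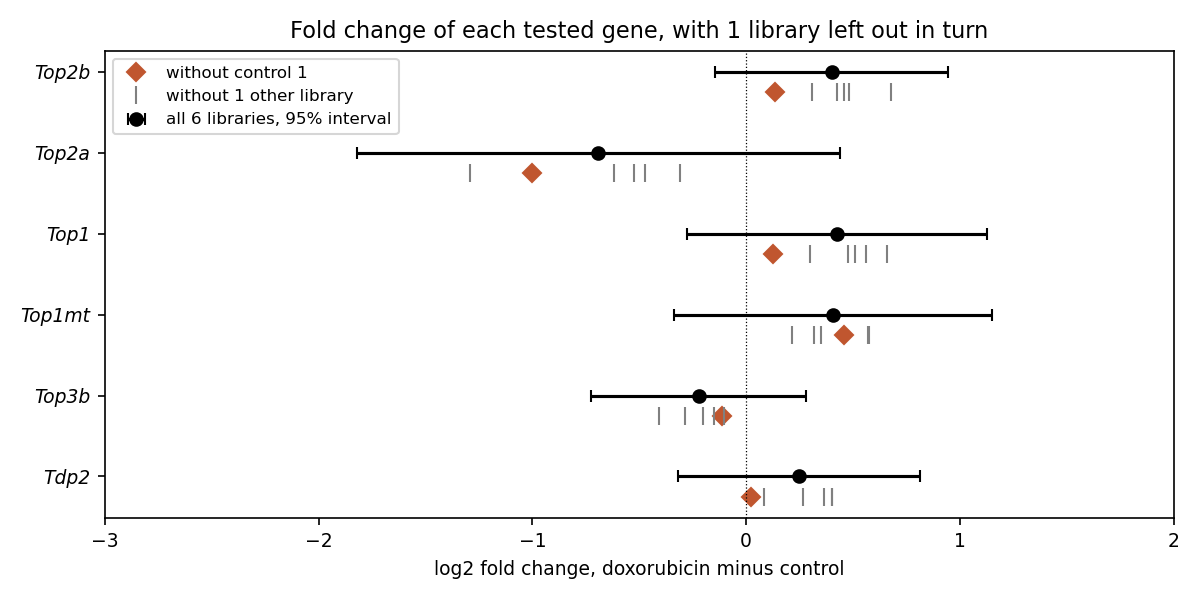
Log2 fold change (horizontal axis, doxorubicin minus control) of the 6 tested genes in edgeR, with 95% intervals from all 6 libraries and, below each, the values with 1 library left out. Each interval spans 0, and leaving out control 1 brings Top2b, Top1 and Tdp2 to between 0.02 and 0.13.

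Control 1 was read against the mean of controls 2 and 3 on the log2 CPM scale. The difference was -1.16 for Top1, -1.16 for Top2a, -1.02 for Top2b and -0.83 for Tdp2, all lower in control 1, and 0.12 for Top1mt and 0.36 for Top3b. Among all tested symbols, ordered from the most negative deviation, these stood at percentiles 3.90, 3.92, 5.68, 9.23, 59.7 and 77.7, in the same order. This is a description of 1 library in the control group, with no test.

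Gene span, the length from a gene's first to last base in the RefSeq table, moved with the same library. The median deviation of control 1 was 0.26 in the quartile of tested symbols with the shortest spans (up to 9.99 kb), 0.07 in the second, -0.10 in the third and -0.27 in the quartile with the longest (from 53.7 kb). The median log2 fold change of the treatment, with all 6 libraries, ran the other way, from -0.09 to 0.11. Control 1 is part of the control group in that fold change, so these trends are not independent. Top1 spans 83.1 kb, Top2b 60.4 kb, Top2a 31.1 kb, Top3b 28.5 kb, Top1mt 25.6 kb and Tdp2 11.4 kb.

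The 500 tested symbols nearest in span to Top2b had a median control 1 deviation of -0.20 and a median log2 fold change of 0.08. For Top1 these medians were -0.22 and 0.12, and for Tdp2 they were 0.12 and -0.02. The part of span, or of what moves with it, in the values of the set was not tested.

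**Figure D4:**
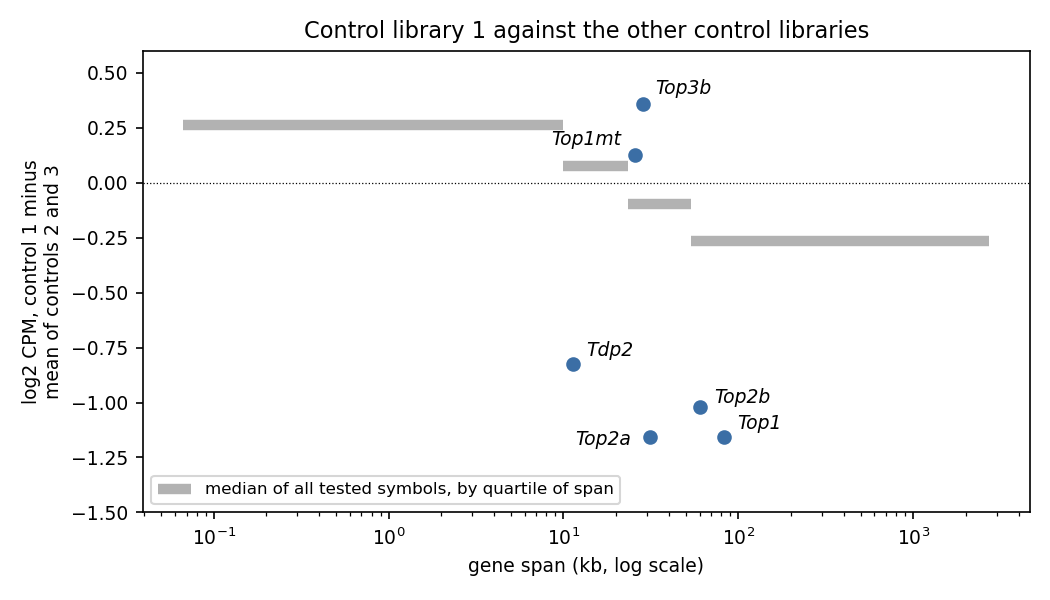
Log2 CPM of control library 1 minus the mean of controls 2 and 3 (vertical axis) against gene span in kb (horizontal log axis), for the 6 tested genes (points) and as the median of all tested symbols in each quartile of span (grey bars). Top1, Top2a, Top2b and Tdp2 lie at -0.83 to -1.16, below the bar of their quartile, and Top1mt and Top3b lie above 0.

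The removal of a trapped topoisomerase and the repair steps after it were described with 3 lists. Proteolysis of the trapped protein and its SUMO or ubiquitin marking gave 13 tested symbols of 15 listed, older names included, of which 0 passed and 0 had an unadjusted p under 0.05, with 7 of 13 above 0 and a median of 0.01. Among the smallest p-values were those of the SUMO ligase gene Pias1 (log2 fold change 0.60, SE 0.34) and Sprtn (0.51, SE 0.40), the protease that digests proteins bound to DNA. Sprtn was at 3.82, 4.00 and 6.82 CPM in the controls and 7.38, 5.93 and 7.96 CPM in doxorubicin libraries 1, 2 and 3, so that doxorubicin 2 overlapped the controls.

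Single-strand break repair, which seals DNA after TDP1, gave 9 tested symbols of 11 listed, with 0 past the adjusted threshold, 0 at an unadjusted p under 0.05, 6 of 9 above 0 and a median of 0.18. Values of the groups were fully apart for 2 of these 9, both higher in doxorubicin. Among all tested symbols, 13.4% were apart in either direction and 6.39% were apart and higher. Aptx, which removes adenylate groups from stalled ligation ends, was at 2.67, 4.00 and 2.27 CPM in control and 6.10, 4.68 and 5.01 CPM in doxorubicin libraries 1, 2 and 3, on 7 to 19 counts, with a log2 fold change of 0.84 (SE 0.45, adjusted p = 0.666 in edgeR). Aptx had 7, 9 and 8 counts in control, each under the filter's minimum count, and 19, 15 and 17 in doxorubicin. It therefore passed the filter through the group where it was higher. The other gene with groups apart was Parp2, a sensor of DNA breaks, at 11.1, 12.9 and 15.3 CPM against 17.3, 19.3 and 15.6 CPM (log2 fold change 0.40, SE 0.27, adjusted p = 0.737 in edgeR). The DNA ligase gene Lig3 had a log2 fold change of 0.46 (SE 0.38) with overlapping groups.

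Double-strand break ends, the lesion that a trapped TOP2 leaves, gave 12 tested symbols of 14 listed. In the list, 0 passed the adjusted threshold, 1 had an unadjusted p under 0.05, 5 of 12 were above 0, and the median was -0.03. Values of the groups were fully apart for 2 of these 12, both lower in doxorubicin. Of all tested symbols, 13.4% were apart in either direction and 7.06% were apart and lower. H2ax, the histone variant marked at DNA breaks, was at 97.8, 72.0 and 58.5 CPM in control and 42.4, 48.4 and 46.3 CPM in doxorubicin libraries 1, 2 and 3. Its log2 fold change was -0.73 (SE 0.22, unadjusted p = 0.00455 and adjusted p = 0.304 in edgeR), with each doxorubicin library below each control. The end-joining factor gene Nhej1 also did not overlap, with a log2 fold change of -0.67 (SE 0.45).

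Lig4, the ligase that joins double-strand ends, was at 3.82, 22.2 and 15.9 CPM in control and 21.5, 20.6 and 24.8 CPM in doxorubicin libraries 1, 2 and 3. Control 1 was its low library, as for Top2b, Top1 and Tdp2, and controls 2 and 3 stood on either side of doxorubicin 2. Lig4 had a log2 fold change of 0.68 (SE 0.42, adjusted p = 0.719 in edgeR).

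Over the 6 lists together, 0 of 69 tested symbols passed in edgeR, in DESeq2 or in limma voom. An unadjusted p under 0.05 in edgeR was seen for 4, Cdk1, Mki67, Prc1 and H2ax, against 8.1% of all tested symbols.

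Among 8607 tested symbols with a mean of at least 5 CPM, those whose log2 CPM followed Top2b most closely over the 6 libraries were Hivep2 (Pearson's r 0.997, Spearman's rho 1.00), Ubn2 (0.997 and 1.00) and Upf2 (0.996 and 0.943). Each had its lowest value in control 1, at 9.93, 1.91 and 13.7 CPM, and its highest in doxorubicin 3, as Top2b did. Those closest to Top2a were Fam118b (0.997 and 1.00), Baz1a (0.992 and 1.00) and Zfp157 (0.960 and 0.829), with their lowest values in doxorubicin 1. With 6 libraries and 8607 symbols such values are a description of these libraries.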

How the data were processed

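RNA from 6 rat hearts was made into mRNA libraries and sequenced on an Illumina instrument, per the labels' protocols. The authors deposited raw read counts per gene symbol in a single table of 18473 rows, with no normalization. The submitters' processing notes list FastQC, Trimmomatic, STAR, HTSeq and the build mRatBN7.2, without versions. The counting mode, the use of strand and the treatment of reads shared by paralogs such as Top2a and Top2b or Top1 and Top1mt were not given in the sources used here.

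Rows of a symbol were summed, and each of the 7 genes found stood on 1 row. The test was edgeR 4.0.16 (R 4.3.3) with its quasi-likelihood F test, an intercept and treatment, TMM scaling, robust dispersion and filterByExpr with a minimum count of 10 and a minimum total of 15. Adjustment over 9205 symbols followed Benjamini and Hochberg, with a threshold of 0.05. Standard errors are the absolute log2 fold change divided by the square root of F, and 95% intervals use the fit's degrees of freedom. The log2 CPM scale uses a prior count of 2. The fit was tested on simulated data. Alternatives used DESeq2 1.42.0, limma 3.58.1, other scalings and filters, a replicate block, each library left out, rows kept apart and gene span. Gene spans and promoter sequences are from RefSeq for build GRCr8, which is not the build of the counts; spans were found for 99.4% of tested symbols, and promoters for 7 of the 8 listed genes.

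The genes, lists and tests were chosen with earlier results of these data known. Named genes are all listed genes, the 3 smallest p-values of each list and the 3 closest patterns to Top2a and Top2b. The result for 1 gene that this rule names is not reported here, and the list counts include it. Intervals on counts and shares, and the floor of 3 counts, cover only counting error, since reads without molecular identifiers are not independent molecules.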

Additional observations from a re-analysis of the deposited data

How the results depend on the processing

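The count of tested symbols past the adjusted threshold, 5 over the whole table, was 0 with library size only and with limma voom, 1 with non-robust dispersion, 61 with no filter, 74 with DESeq2, 13 with the replicate block, and 0 to 35 with 1 library left out. It was 0 without control 1, control 3, doxorubicin 1 or doxorubicin 3, and 35 without doxorubicin 2; the cause was not tested. The replicate block pairs numbers only: same-numbered libraries are different animals, and their deviations correlated at 0.021, -0.19 and -0.056. It changed no call for the set, in which 0 genes passed under each of the 16 alternative fits; 0 of the 69 list symbols passed under them either.

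The 6 tested genes kept their direction in all 17 alternatives. On the log2 scale the fold change ran from 0.13 to 0.68 for Top2b, from -1.29 to -0.31 for Top2a, from 0.13 to 0.66 for Top1, from 0.22 to 0.58 for Top1mt, from -0.41 to -0.10 for Top3b and from 0.02 to 0.40 for Tdp2. Each range was set by the fits that left out 1 library. Unadjusted p-values under 0.05 occurred for Top2b without control 3 (0.0287) and for Top2a without doxorubicin 2 (0.0452). Tdp1 ranged from -0.63 to 0.02, and its value of 0.020 without control 1 was the reversal. The difference in the Top1mt share, -2.32 percentage points, was 5.13 without control 1 and 2.17 without doxorubicin 3. The lowest counts were those of Top2a and Tdp1, at 5 to 30 and 7 to 16 per library.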
